A study of Rattus norvegicus with 2 samples.

Results

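The AP-1 family is described here by 10 genes of the 17049 in the deposited expression table. They were chosen by gene symbol as the Fos genes (Fos, Fosb, Fosl1, Fosl2), the Jun genes (Jun, Junb, Jund), Atf3 and the small Maf genes Maff and Mafk, and all 10 symbols had 1 row each. The cells were primary oligodendrocyte precursor cells (OPCs) from the brain of adult wild-type rats, kept in OGM medium at 37 °C with 5% CO2. One culture received Aβ, the amyloid peptide that forms plaques in Alzheimer's disease, at 1 µM for 2 days, and the other is labelled DMSO and served as the control. There was 1 library of each, holding 15704932 (Aβ) and 15663751 (control) estimated reads, so no difference had a replicate check and no p-value is given. The protocol text of the control also mentions Aβ, so its group was taken from the treatment label, and its sample title also marks it as the control.

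AP-1 is a dimer of basic leucine zipper (bZIP) proteins that binds DNA at TPA response elements and related sites. Fos proteins cannot pair with themselves and bind DNA as partners of Jun proteins, whereas Jun proteins can also pair with each other. Atf3 pairs with Jun proteins or with itself and often represses. Small Maf proteins lack a transactivation domain and serve mainly as partners of Nrf2, Bach and other bZIP factors. Several Fos and Jun genes, Atf3 and Maff belong to the immediate early genes. Such genes are transcribed soon after growth factors, cytokines or stress act on a cell through MAP kinases.

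The 12 OPC markers summed to 2810 TPM (a level corrected for gene length and library total) with Aβ and 3010 TPM in the control, mostly from Olig1, Ptprz1 and Olig2. Of the 11 at 1 TPM or more in either library, the counting interval of the ratio between the libraries lay above 1 for 3, Cspg4 (1.78, 1.54 to 2.05) and C1ql1 (1.95, 1.32 to 2.91) among them, and below 1 for 4, with Olig1, Olig2 and Pdgfra among these. Of all 12980 genes at that level, the interval lay above 1 for 12% and below 1 for 12.5%. Further, Sox10 was at 0.84 and 1.22 TPM (Aβ, then control) and Gpr17 had 4 and 5 reads. Markers of other cells were present too. Summed TPM was 2380 and 2400 over 10 astrocyte markers, 358 and 407 over 14 microglia markers, 218 and 233 over 11 oligodendrocyte markers and 151 and 146 over 12 neuron markers. Of 9 astrocyte markers at 1 TPM or more, the interval lay above 1 for 3 and below 1 for 5. For 8 oligodendrocyte markers these counts were 0 and 3, and for 9 neuron markers 3 and 2. Endothelial markers summed to 5.73 and 5.66 TPM and fibroblast and pericyte markers to 8.33 and 11.4 TPM. Acta2 and Abcc9 had 0 reads with Aβ and only 2 and 1 in the control. Of 4 fibroblast and pericyte markers at 1 TPM or more, the interval lay above 1 for 0 and below 1 for 2. These were Col1a2 (0.365, 0.257 to 0.509) and Col1a1 (0.425, 0.258 to 0.683). Of 13 microglia markers at 1 TPM or more, that interval lay below 1 for 4, among them the complement genes C1qa (53.4 and 80.2 TPM) and C1qc (28.1 and 35.0 TPM), and above 1 for 1. AP-1 genes can be expressed by all these cells, and the part of other cells in the results below was not tested. In bulk RNA, fewer cells of a type and less RNA per cell cannot be told apart.

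Fos and Junb were the members that stood highest in the Aβ library relative to the control. Jun was slightly higher, Jund, Fosl1, Mafk, Maff and Fosb lay within counting error of equal, and Atf3 and Fosl2 had ratios above 1 on few reads, with intervals that include 1. The read ratio divides a gene's share of all reads with Aβ by its share in the control. Its 95% interval is exact (Clopper-Pearson) and covers counting error only, because 1 library per group gives no spread between cultures. Without molecular identifiers several reads can come from 1 molecule, so the interval may be too narrow even for counting error. Of the 10 members 9 reached 1 TPM in either library, and Fosb did not. Among these 9, 3 (Fos, Junb and Atf3) were at least 1.3-fold higher with Aβ, where 5.89% of all 12980 genes at that level were, and 0 were at least 1.3-fold lower, where 5.18% of genes were. The interval lay above 1 for 3 (Fos, Junb and Jun) and below 1 for 0, against 12% and 12.5% of those genes. No member was 2-fold higher, as 0.963% of genes were. The median read ratio of the 9 members was 1.11, a log2 ratio of 0.15, and that of all 12980 genes was 1.00. The members' median log2 ratio was 0.08 with all 10 members, with the members at 200 or more reads, or with those whose counts are whole.

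**Figure D1:**
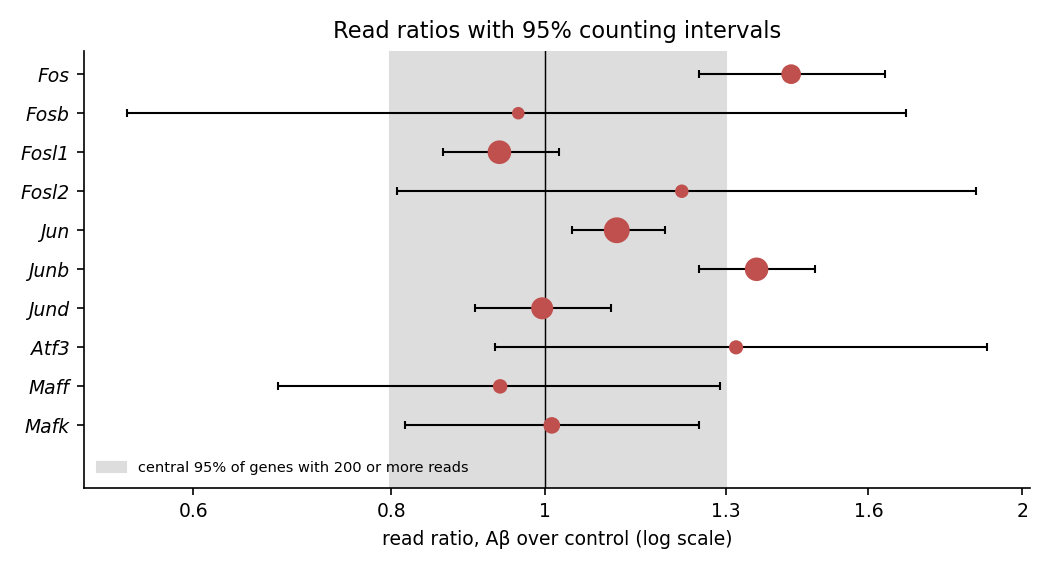
Read ratio of each member, Aβ over control, on a log axis, with 95% counting intervals; the point area grows with the reads behind it, and the grey band is the central 95% of genes with 200 or more reads (0.798 to 1.3). Fos at 1.43 and Junb at 1.36 lie beyond the band with intervals above 1, and Atf3 at 1.32, which has fewer than 200 reads, lies inside the wider central 95% of all genes at 1 TPM or more (0.655 to 1.53), with an interval that includes 1.

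RefSeq promoter windows of build GRCr8, from 250 bases before to 50 after the annotated start, were found for 7 of the 10 genes and not for Fos, Jun and Atf3. The reads had been aligned to another build, Rnor_6.0, so the positions below belong to the windows only. Shown are Junb, the member with the largest TPM difference, Jund, its paralog with nearly equal levels, Fosl1, the most abundant member in the control, and Maff, which with Jund holds the cAMP response element. Capitals mark matches, on either strand, to TGACTCA or TGAGTCA (the TPA response element), TGACGTCA (the cAMP response element), TGACGTAA, the TATA box TATAAA, the box named for its letters CCAAT, the GC box GGGCGG or the serum response element.
Junb, chr19:40080876-40081175, + strand: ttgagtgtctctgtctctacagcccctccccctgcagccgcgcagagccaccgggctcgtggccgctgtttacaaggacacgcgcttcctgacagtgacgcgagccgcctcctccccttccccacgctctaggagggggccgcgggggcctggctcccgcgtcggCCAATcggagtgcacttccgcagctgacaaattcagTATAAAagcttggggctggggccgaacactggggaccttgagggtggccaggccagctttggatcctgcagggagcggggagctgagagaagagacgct
Jund, chr16:18769722-18770021, - strand: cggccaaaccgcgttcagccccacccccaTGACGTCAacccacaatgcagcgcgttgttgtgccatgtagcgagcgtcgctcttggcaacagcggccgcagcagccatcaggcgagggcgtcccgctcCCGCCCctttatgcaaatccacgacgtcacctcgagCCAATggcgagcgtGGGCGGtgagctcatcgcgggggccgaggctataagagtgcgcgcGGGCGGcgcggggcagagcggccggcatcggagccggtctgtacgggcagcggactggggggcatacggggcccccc
Fosl1, chr1:212183635-212183934, + strand: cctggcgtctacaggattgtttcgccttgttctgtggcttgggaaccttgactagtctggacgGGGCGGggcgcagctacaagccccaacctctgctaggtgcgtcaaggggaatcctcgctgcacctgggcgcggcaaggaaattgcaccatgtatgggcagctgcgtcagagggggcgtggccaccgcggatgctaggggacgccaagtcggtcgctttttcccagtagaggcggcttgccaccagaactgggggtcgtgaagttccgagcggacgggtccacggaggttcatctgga
Maff, chr7:112792537-112792836, + strand: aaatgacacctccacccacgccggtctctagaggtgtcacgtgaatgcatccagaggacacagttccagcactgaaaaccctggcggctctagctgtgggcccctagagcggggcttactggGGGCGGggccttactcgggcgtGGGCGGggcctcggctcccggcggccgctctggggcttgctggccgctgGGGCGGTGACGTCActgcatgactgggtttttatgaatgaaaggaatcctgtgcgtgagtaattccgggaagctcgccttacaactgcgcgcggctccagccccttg

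The palindrome TGACGTCA was found in Jund, first base at -221, and in Maff, first base at -51, and in 1.83% of 33469 rat promoter windows. The TATA box of Junb began at -49 and its CCAAT box at -85, motifs held by 14.2% and 37.5% of windows. Fosb, not shown, had a TATA match at -180 on the opposite strand. A CCAAT box also lay at -86 in Jund. In the Maff window 3 GC boxes were found, the last of which, at -57, adjoins the cAMP response element. Jund and Mafk also had 3 GC boxes each, Fosl2 had 2 and Fosl1 had 1. GC boxes were held by 33.1% of windows. The TPA response element (4.63% of windows), TGACGTAA (0.807%) and the serum response element (1.64%) had no match in any of the 7 windows, which says only that these letters are not in these 300 bases. A match is a description and not evidence of binding.

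Fos, the founding Fos protein gene and a common readout of recent stimulation, had 539 reads with Aβ and 376 in the control. Its level was 40.2 TPM with Aβ (counting interval 36.9 to 43.8) against 28.1 TPM (25.3 to 31.1) without, so the intervals of the libraries did not overlap. The read ratio was 1.43 (1.25 to 1.64), the highest of the family. Small numbers of reads widen the ratios of all genes, and among the 10581 genes with 200 or more reads in both libraries together only 2.59% were 1.3-fold higher with Aβ. The ratio of Fos was above that of 98.8% of them.

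Fosl1, which encodes Fra-1, a Fos protein without the C-terminal transactivation domain, was the most abundant Fos gene in both libraries. It had 1111 reads with Aβ and 1184 in the control, or 78.4 TPM (73.9 to 83.1) and 83.6 TPM (78.9 to 88.5). The ratio of 0.936 (0.862 to 1.02) included 1. The proportion of Fos to Fosl1 differed between the libraries beyond counting error: the quotient of their levels was 0.513 with Aβ and 0.336 in the control, and the read ratio of Fos was 1.53 times that of Fosl1 (exact conditional interval 1.3 to 1.79). In such a quotient the library total and the gene lengths cancel.

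Fosl2, which encodes Fra-2, had 54 and 44 reads and a ratio of 1.22 (0.807 to 1.87). Its levels of 7.74 and 6.38 TPM rest on a short gene model, since reads and FPKM imply an effective length of 0.668 kb with Aβ, against 1.28 kb for Fos and 2.79 kb for Jun. Fosb, which in brain tissue is known for the long-lived splice form ΔFosB, had 27 and 28 reads, 0.88 and 0.91 TPM, and a ratio of 0.962 (0.545 to 1.69). At this depth a difference in Fosb of the size seen for Fos was not detectable. Summed over the 4 Fos genes, the level was 127.2 TPM with Aβ against 119.0 TPM, and the read ratio was 1.06 (0.988 to 1.13).

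Junb, an early Jun gene whose protein is the weaker activator of the Jun subfamily in textbook accounts, had 1291 reads with Aβ and 946 in the control. Its level was 83.6 TPM (79.1 to 88.3) against 61.2 TPM (57.4 to 65.2), again without overlap of the counting intervals. The read ratio of 1.36 (1.25 to 1.48) was above that of 98.4% of genes with 200 or more reads. Jun, the main partner of Fos, had 1843 and 1658 reads and 63.3 TPM (60.4 to 66.2) against 56.7 TPM (54.0 to 59.4). Its ratio of 1.11 (1.04 to 1.19) had an interval above 1, as had 13.1% of the genes with 200 or more reads, while 13.7% of those genes had one below 1. The ratio was above that of 85.2% of these genes, so that of Jun was the least extreme of the 3 members whose interval lay above 1.

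Jund, the Jun gene usually expressed at a steady level in resting cells, had 810 and 811 reads, 56.5 TPM in both libraries, and a ratio of 0.996 (0.903 to 1.10). The Jun genes therefore differed among themselves beyond counting error. The read ratio of Junb was 1.37 times that of Jund (1.20 to 1.56) and 1.23 times that of Jun (1.10 to 1.37). Jun against Jund gave 1.11 (0.987 to 1.25), which includes 1. Summed over the 3 Jun genes, the level was 203.3 TPM with Aβ against 174.4 TPM, for a read ratio of 1.15 (1.10 to 1.21).

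The proportion of Fos to Junb was close in the libraries. The quotient of Fos over Junb was 0.481 by TPM with Aβ and 0.459 in the control, and the ratio of their read ratios was 1.05 (0.896 to 1.23). Against Jun, Fos had 1.29 times its ratio (1.11 to 1.5), and against Jund 1.44 times (1.21 to 1.70). In all 12 pairs of members were compared in this way, chosen after the values were seen. Of the other pairs, Junb over Fosl1 had an interval above 1 (1.45, 1.29 to 1.64), and Fos over Fosb (1.49, 0.829 to 2.67), Fosl1 over Fosl2 (0.765, 0.497 to 1.17), Maff over Mafk (0.929, 0.630 to 1.37) and Atf3 over Jun (1.19, 0.833 to 1.72) had intervals that include 1.

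Atf3, a stress-induced bZIP gene, was listed at 76.95 and 57.93 estimated reads. It was the sole member whose deposited counts were not whole, which can arise where reads are shared among gene models. Its level was 4.65 TPM with Aβ (3.67 to 5.82) against 3.50 TPM (2.66 to 4.53), and these counting intervals overlap. The ratio of 1.32 (0.930 to 1.90) passed the fold used here and not the counting interval. Among the small Maf genes, Mafk had 182 and 180 reads, 7.10 and 6.90 TPM, and a ratio of 1.01 (0.816 to 1.25). Maff, the small Maf gene best known as stimulus-induced, had 78 and 83 reads, 4.57 and 4.80 TPM, and a ratio of 0.937 (0.679 to 1.29). Neither small Maf gene differed between the libraries beyond counting error.

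**Figure D2:**
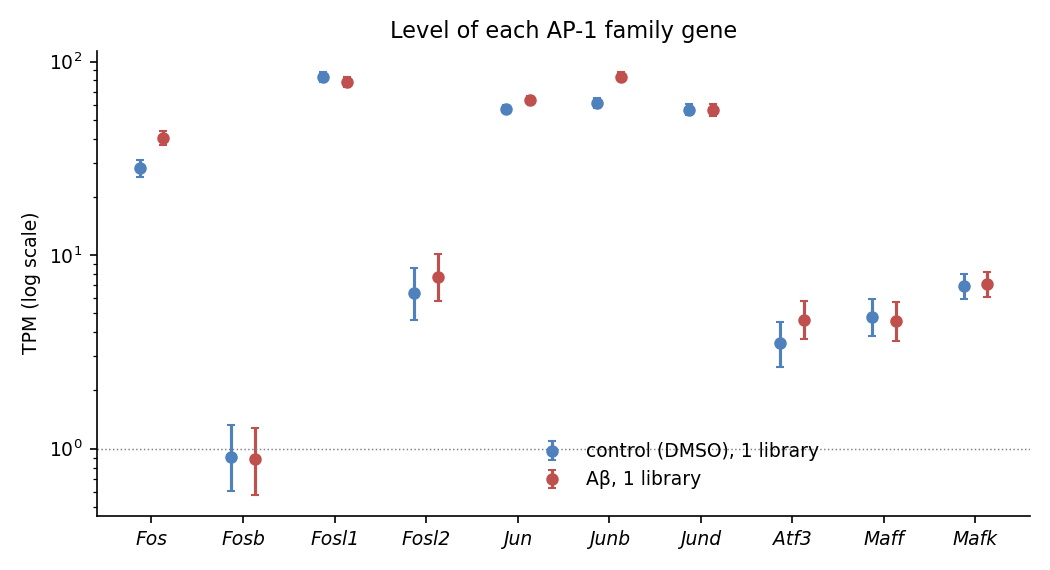
TPM of each member on a log axis in the control library (blue) and the Aβ library (red), with counting intervals; the dotted line is 1 TPM. The counting intervals of the libraries are apart for Fos, Junb and Jun and overlap for the other 7 members, of which Fosb lies below 1 TPM.

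The members fell into an abundant and a scarce set. Fosl1, Junb, Jun, Jund and Fos lay between 28.1 and 83.6 TPM in both libraries, while Fosl2, Mafk, Maff, Atf3 and Fosb lay at 7.74 TPM or less. In the control the order was Fosl1, Junb, Jun, Jund and Fos, where Fosl1 and Fos stood apart from their neighbours and the intervals of Junb, Jun and Jund overlapped. With Aβ Junb ranked first, and its interval overlapped that of Fosl1. Jun and Jund overlapped narrowly, and Fos was again the fifth. Among all genes, Junb was above 87.9% by TPM with Aβ and 83.2% in the control, and Fos above 75.6% and 68.1%.

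The TPM of the 10 members summed to 346.9 with Aβ and 308.6 in the control, a ratio of 1.12. Of the difference of 38.3 TPM, Junb made up 22.4 TPM (58.4%) and Fos 12.1 TPM (31.7%). Jun added 6.61 TPM, and the difference for Fosl1 was -5.19 TPM. Without Fos and Junb, left out after their values were seen, the summed levels stood at a ratio of 1.02. The share of Junb in the summed level was 24.1% with Aβ and 19.8% in the control, that of Fos 11.6% and 9.11%, and that of Fosl1 22.6% and 27.1%. The Jun genes together held 58.6% and 56.5%, so the quotient of the Jun over the Fos subfamily was 1.6 with Aβ and 1.47 in the control. By summed reads that quotient was 1.09 times as high with Aβ, with a counting interval (1.00 to 1.18) that begins close to 1.

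**Figure D3:**
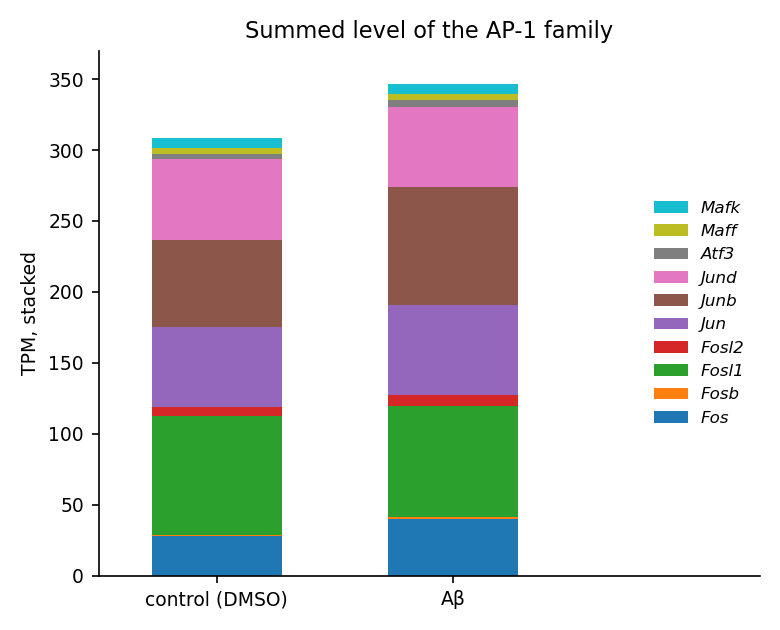
TPM of the 10 members stacked by library, control at 308.6 and Aβ at 346.9. The segments of Junb (61.2 and 83.6 TPM) and Fos (28.1 and 40.2 TPM) widen, and that of Fosl1 (83.6 and 78.4 TPM) narrows.

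The authors' deposited enrichment table, labelled as covering genes higher with Aβ, lists 282 gene ontology terms for 391 genes, against a background of 13666 genes. In the authors' deposited table Fos is named in 30 terms and Junb in 9, with 5 terms naming both, and the other 8 members are named in none. The term with Fos that has the lowest adjusted p in the authors' deposited table is the response to molecules of bacterial origin (31 genes, 3.52-fold, adjusted p 4.8e-07). For Junb the term with the lowest adjusted p in the authors' deposited table is myeloid leukocyte differentiation, which also names Fos (20 genes, 3.01-fold, adjusted p 0.00141). The 246 genes named in the terms of the authors' deposited table all had read ratios of 1.19 or more here, above the ratio of Jun. Since the terms name 246 genes and the list holds 391, a member named in no term could still be among the 391. The authors' table was deposited with these same 2 libraries, so it is no independent check of the ratios. The sources used here do not say how the 391 genes were picked.

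Genes around AP-1 were described by the same rules from 7 lists, which were chosen with earlier results of these data known. Their counts are therefore descriptions and not an independent check. The counts of each list below stand beside these shares of all 12980 genes at 1 TPM or more. Of those genes 5.89% were 1.3-fold higher and 5.18% lower, and the interval lay above 1 for 12% and below 1 for 12.5%. Of 20 other bZIP partners at 1 TPM or more, 1 was 1.3-fold higher and 0 lower, and the interval lay above 1 for 6 and below 1 for 1, with a median log2 ratio of 0.08. The cAMP-responsive modulator Crem was at 35.6 and 26.8 TPM (ratio 1.33, 1.19 to 1.49). The C/EBP genes Cebpa (1.27, 1.13 to 1.42) and Cebpb (1.26, 1.14 to 1.4) came next.

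Of 38 kinases and scaffolds upstream of AP-1, 0 passed 1.3-fold in either direction, and the median log2 ratio was -0.01. The interval lay above 1 for 5 and below 1 for 3. The named genes were the kinase gene Map3k8, on 50 and 64 reads (0.779, 0.527 to 1.15), the JNK scaffold Mapk8ip2 (0.833, 0.592 to 1.17) and Map2k2, a kinase that activates ERK (1.19, 1.10 to 1.28). Transcript levels do not measure kinase activity. Among 15 factors that drive Fos and Jun transcription, 1 was 1.3-fold higher and 0 lower, with intervals above 1 for 5 and below 1 for 2 and a median log2 ratio of 0.03. Mef2c was at 6.39 and 4.72 TPM (1.34, 1.15 to 1.56), Mkl2, a cofactor of serum response factor, at 1.28 (0.935 to 1.76) and Elk1, an ERK-responsive partner of serum response factor, at 1.20 (1.08 to 1.35).

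Of 21 regulators that lower AP-1 output, 5 were 1.3-fold higher and 1 lower, with intervals above 1 for 7 and below 1 for 2 and a median log2 ratio of 0.09. The MAP kinase phosphatase genes Dusp2 (46 and 21 reads, ratio 2.18, 1.28 to 3.85), Dusp8 (46 and 26 reads, 1.76, 1.07 to 2.97) and Dusp4 (41 and 24 reads, 1.70, 1.01 to 2.95) were higher on few reads. Not all of the higher genes were scarce. The phosphatase gene Dusp5 had 286 and 177 reads (1.61, 1.33 to 1.96). Crem, which is also among the bZIP partners above, had 737 and 552 reads (1.33, 1.19 to 1.49). The 1 lower gene was Zfp36l2, on 67.44 and 99.82 estimated reads (0.668, 0.483 to 0.92).

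Other immediate early genes, of which 31 were at 1 TPM or more, included 14 at least 1.3-fold higher and 0 lower, with intervals above 1 for 20 and below 1 for 0. Their median log2 ratio was 0.35, against 0.15 for the 9 AP-1 members (0.08 for all 10), and Maff is on both lists. The orphan nuclear receptor gene Nr4a1 (2.81, 2.43 to 3.26) and the repressor gene Bhlhe40 (2.04, 1.83 to 2.28) had ratios beyond that of any AP-1 member, as had Dusp2, given above. Whether the lists differ was not tested.

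Among 39 genes with textbook AP-1 sites, 18 were 1.3-fold higher and 1 lower, with intervals above 1 for 24 and below 1 for 4 and a median log2 ratio of 0.32. Many of these genes also answer to NF-κB and other factors. Ptgs2, which encodes cyclooxygenase-2, was at 11.6 and 4.82 TPM (2.40, 1.83 to 3.18) and the cytokine gene Il6 at 27.6 and 12.7 TPM (2.19, 1.71 to 2.81). The deposited counts of Tnf, 76.02 with Aβ against 0, are not whole, and no ratio is given, though it counts among the 18. The summed TPM of this list was 13500 with Aβ and 13900 in the control. Its largest parts were Vim (4236 and 5151 TPM) and Mt2A (4488 and 4588 TPM), so the sum mostly follows these genes. Of 21 small Maf and Nrf2 target genes, 0 were 1.3-fold higher and 1 lower, with intervals above 1 for 6 and below 1 for 5 and a median log2 ratio of -0.01. Osgin1 (66 and 95 reads, 0.693, 0.498 to 0.959), the cystine transporter gene Slc7a11 (0.857, 0.829 to 0.886) and the thioredoxin gene Txn1 (1.24, 1.07 to 1.44) were named by the rule.

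**Figure D4:**
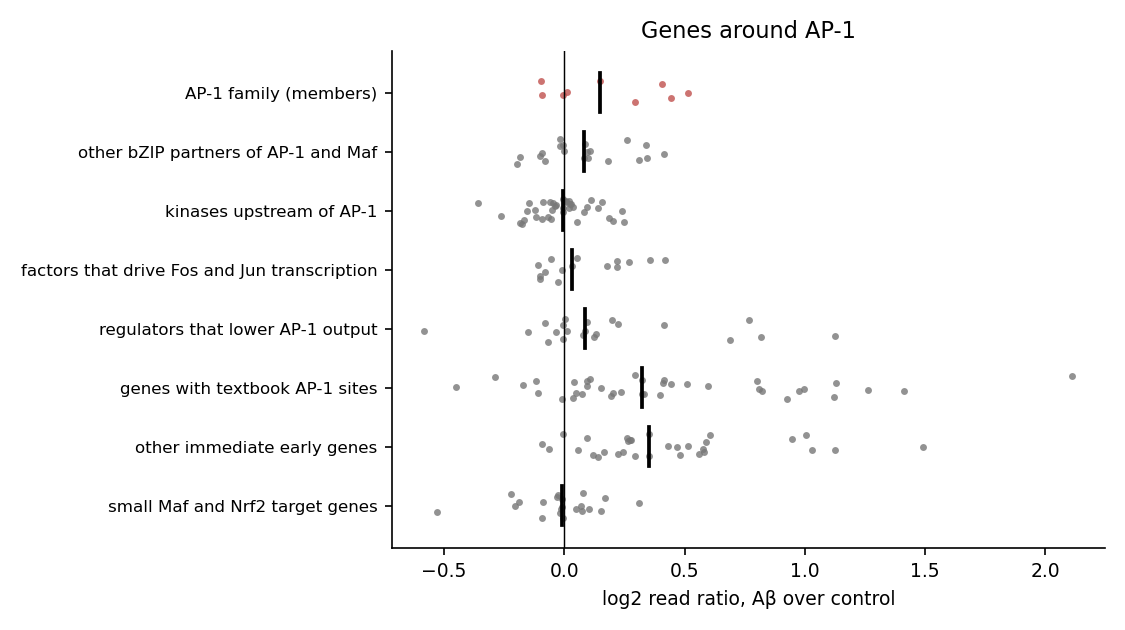
Log2 read ratio, Aβ over control, of each gene at 1 TPM or more in the AP-1 family (red) and 7 other lists (grey), with the list median as a black bar; Tnf, listed at 0 reads in the control, is left out of the points. The medians of the genes with AP-1 sites (0.32) and of the other immediate early genes (0.35) lie to the right of the AP-1 family (0.15), and the kinases and the Nrf2 targets lie at -0.01.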

How the data were processed

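RNA was measured in 1 Aβ and 1 control library of rat OPCs, each built from 1 µg of total RNA as an mRNA library, per the labels' protocols. Per the submitters' processing notes the authors used Bowtie2 and the build Rnor_6.0; a counting tool and annotation were not given in the sources used here. Estimated counts, as deposited, were fractional for 11.6% (Aβ) and 12.2% (control) of genes. The authors also give TPM and FPKM, per the file headers, and a deposited column named normalized count that equals the count rounded up, which was left unused. Per the file headers, the enrichment table holds a fold enrichment ratio, p-values, a z score and the count of genes per term.

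Counts were rounded before ratios were taken, and a ratio is reads per total reads. The background is the genes that reached 1 TPM with Aβ or in the control; the fold of 1.3 stands in for a test. At 0 reads the limit is 3 reads (0.191 CPM with Aβ). The members and lists were chosen with earlier results of these data known. Named were all members and, per other list, the 3 genes with 50 or more reads and the largest absolute log2 ratio. The marker genes named, and Vim, Mt2A, Dusp5 and Zfp36l2, were picked after their values were seen. Alternatives used TMM factors (edgeR 4.0.16), DESeq2 1.42.0 size factors, TPM with and without a pseudocount of 1, and other filters. In simulated data with 200 altered genes, 44 of 50 genes raised 1.4-fold passed 1.3-fold, as did 383 of 12776 unaltered genes. With 200 or more reads these were 40 of 44 and 25 of 10409, and 95.4% of intervals of the latter held the true ratio. The simulated reads varied by Poisson counting error only, which the intervals assume, so coverage near 95% was built in. Differences between cultures were not simulated. Python 3.11.15 and scipy 1.17.1 were used.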

Additional observations from a re-analysis of the deposited data

How the results depend on the processing

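All 40 alternative values of the 10 member ratios, under edgeR's TMM factors, DESeq2's size factors and TPM with or without a pseudocount of 1, lay within the counting interval of the reported ratio. The TMM factors were 0.999946 (Aβ) and 1.00005 (control) and the DESeq2 size factors 1 and 1. These scalings therefore nearly repeat the reported ratio and are a weak check. The count of members at least 1.3-fold higher was 3 by TMM, by DESeq2's size factors, by TPM and with no filter, and 2 (without Atf3) with a pseudocount of 1, with at least 200 reads or with whole counts only. The 3 members with intervals above 1 stayed 3 in each setting that gives intervals. These members have whole counts and more than 200 reads, so the filters could not remove them. The TPM ratio summed over the family moved from 1.12 to 1.19 without Fosl1, the member with the highest mean TPM over the libraries, to 1.06 without Junb, which ranked first with Aβ, and to 1.02 without Fos and Junb; the last 2 settings were added after the data were seen. The members' median log2 ratio of 0.15 was 0.15 to 0.16 under the other scalings and 0.08 under each of the other filters. The DESeq2 factors shifted the median log2 ratio of all genes by 0.004. No paired analysis was possible because each group had 1 library, and for the same reason no library could be left out. Depth limits the scarce members most: the intervals of Fosb (0.545 to 1.69), Fosl2 (0.807 to 1.87) and Atf3 (0.930 to 1.90) hold both equality and the ratio of Fos.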
